A study of Mus musculus with 15 samples.

Results

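The Shank, Dlg and Homer genes encode the main scaffold proteins of the postsynaptic density, the protein layer under the membrane of excitatory synapses. The 10 genes described here (Shank1 to Shank3, Dlg1 to Dlg4 and Homer1 to Homer3) were taken by symbol from a table of 15569 genes, and each has its own row. They were measured by RNA sequencing of striatum taken on postnatal day 14 from C57Bl/6J pups. In the exposed groups the mothers had been exposed to aerosols while pregnant. The groups were paraquat, a redox-cycling herbicide (3 libraries), titanium dioxide nanoparticles, written TiO2 (4 libraries), a mix of paraquat and TiO2, called the mixture (4 libraries), and a control labelled untreated (4 libraries). The labels name no dose, litter or sex. Nor do they tie each library to its own animal, so that a p-value here speaks of the spread among the 15 libraries alone, which may be technical.

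The scaffold is layered. Dlg proteins, the membrane-associated guanylate kinases of which Dlg4 encodes PSD-95, lie nearest the membrane and hold glutamate receptors, ion channels and adhesion proteins through PDZ domains. SAPAP proteins, encoded by the Dlgap genes, link them to Shank proteins deeper in the layer, and Shank proteins bind Homer, which forms a mesh with Shank and ties metabotropic glutamate receptors to calcium channels inside the cell. In the striatum these synapses receive cortical and thalamic axons on medium spiny neurons, and Shank3 is known as the prominent Shank there, while Shank1 is known from cortex and hippocampus.

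Values are normalised read counts, whole reads scaled by each library's size factor. Libraries held 8690925 to 14207513 reads. All 14 markers of medium spiny neurons were in the table, and Ppp1r1b, which encodes the striatal phosphoprotein DARPP-32, stood at 7955 to 12262 in the 15 libraries. The median transcript GC content over all genes was 49.9%. The correlation across genes of a library's deviation with GC content was 0.02 to 0.34 in paraquat, -0.12 to 0.46 in TiO2, -0.28 to 0.09 in the mixture and -0.38 to 0.07 in control libraries.

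In control striatum the 10 genes differed widely in level per length. Divided by the length of all merged exons, Dlg2 came first with 757.5 ± 31.2 normalised reads per kb (SD, n = 4). Shank3 with 304 ± 28.5 and Dlg4 with 281 ± 21.9 normalised reads per kb followed, and these 2 did not differ beyond their spread. Homer1 (160 ± 23.6), Dlg3 (141 ± 9.71) and Shank2 (141 ± 16.4) lay together, above Dlg1 (73.2 ± 4.07 normalised reads per kb). Homer2 (47.0 ± 6.67) and Shank1 (39.98 ± 6.97) overlapped, and Homer3 was lowest with 15.1 ± 1.21 normalised reads per kb. Several of these genes have long or alternative ends, and the order depends on the length used. Divided by 1 coding transcript, the one with the longest coding part, Dlg4 with 1092 ± 85.1 and Homer1 with 446 ± 65.9 normalised reads per kb came next after Dlg2, while Shank1 and Homer3 stayed last.

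**Figure D1:**
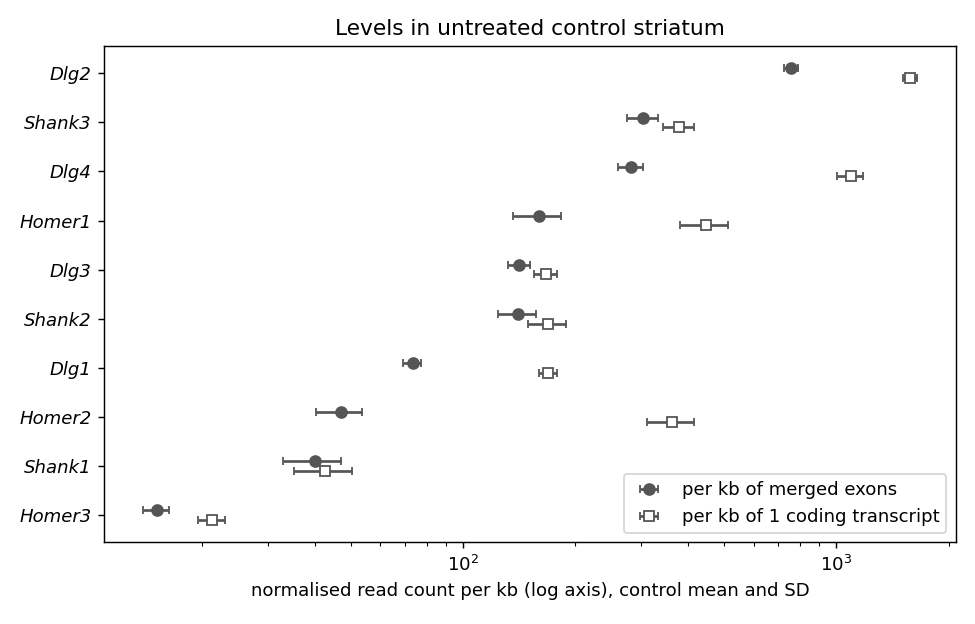
Level of each scaffold gene in the 4 control libraries as normalised read count per kb on a log axis, with the mean and SD, by merged exon length (filled circles) and by the length of 1 coding transcript (open squares). Dlg2 is highest and Homer3 lowest on both scales, while Dlg4, Homer1 and Homer2 move up by transcript length.

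The genes also differ in base composition, which is shown here because it went with how several of them varied between libraries. GC content over the transcript was 62.4% for Shank3, 61.4% for Shank1 and 59.4% for Homer3, against 44.3% for Dlg2 and 37.8% for Homer1. The 90 bases at the middle of the coding part of 4 of them, read from GENCODE M21 transcripts of GRCm38 in the direction of the mRNA, follow with every G and C in capitals. G and C make up 68.9% of the window in Shank1, 76.7% in Shank3, 55.6% in Dlg2 and 48.9% in Homer1.
Shank1: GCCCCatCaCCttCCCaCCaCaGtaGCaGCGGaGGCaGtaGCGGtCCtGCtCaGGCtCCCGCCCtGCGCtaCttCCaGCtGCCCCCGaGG
Shank3: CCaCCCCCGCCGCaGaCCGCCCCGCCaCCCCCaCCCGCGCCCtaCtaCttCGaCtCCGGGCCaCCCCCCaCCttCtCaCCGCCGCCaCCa
Dlg2: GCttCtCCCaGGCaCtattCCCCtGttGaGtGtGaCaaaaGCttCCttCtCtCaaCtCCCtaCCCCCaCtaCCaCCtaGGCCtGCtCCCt
Homer1: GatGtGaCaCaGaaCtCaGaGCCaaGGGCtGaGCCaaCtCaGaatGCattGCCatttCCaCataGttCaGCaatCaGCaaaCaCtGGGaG

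Shank1 (chr7:44310253-44360572, plus strand, GRCm38) was the 1 scaffold gene of the 10 whose change passed the test, and it was higher with paraquat and with the mixture. The paraquat libraries had 617, 855 and 719 normalised reads, the TiO2 libraries 445, 502, 703.5 and 513, the mixture libraries 714, 564, 623 and 721, and the control libraries 332.5, 395, 503 and 450.2. All paraquat and all mixture libraries lay above all control libraries, whereas 2 of the 4 TiO2 libraries lay within the control range. Group means were 731 ± 120 with paraquat, 541 ± 112 with TiO2, 655.5 ± 75.5 with the mixture and 420.3 ± 73.3 in control (SD). With limma on log2(value + 1), fitted over all 15 libraries and adjusted by Benjamini-Hochberg over 15556 genes, the log2 fold change was 0.80 ± 0.15 (SE, adjusted p = 0.00335) with paraquat, a 1.74-fold rise. It was 0.65 ± 0.14 (adjusted p = 0.0299) with the mixture, a 1.57-fold rise, and 0.36 ± 0.14 (adjusted p = 0.128) with TiO2.

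Of all genes tested, 10.4% were called in either direction with paraquat, 6.4% with TiO2 and 1.19% with the mixture, at an adjusted p under 0.05. The members called were 1, 0 and 1 of 10 in these comparisons, which share the same 4 control libraries. An exact two-sided permutation test of Shank1 alone gave p = 0.0571 for paraquat (n = 3 against 4) and p = 0.0286 for the mixture (n = 4 each), each the smallest the design allows, and 0.143 for TiO2. Where groups do not overlap, as for paraquat and the mixture, this test can give no other p, so it adds nothing to that. The rise with paraquat passed the threshold without any single library, at a log2 fold change of 0.68 to 0.91 and an adjusted p up to 0.0196. The call for the mixture was lost without control 1, 2 or 4 or without mixture 1, 3 or 4, where the adjusted p reached 0.0987, at a log2 fold change of 0.54 to 0.69.

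**Figure D2:**
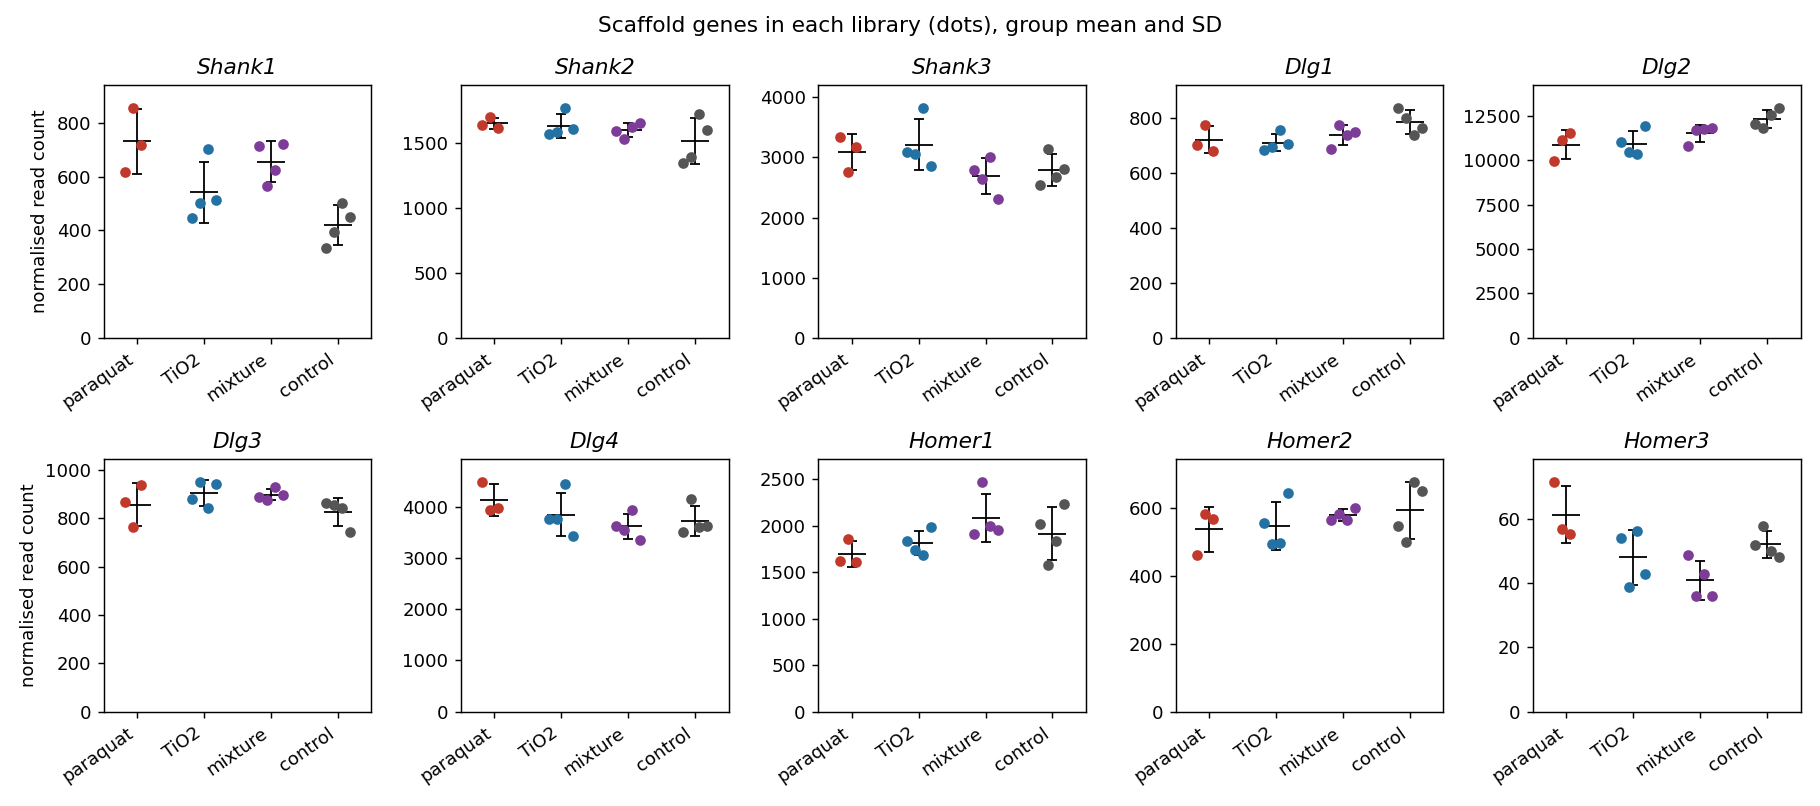
Normalised read count of each scaffold gene in every library (dots), by group, with the group mean and SD in black and each axis starting at 0. Shank1 lies higher in all 3 paraquat and all 4 mixture libraries than in any control library, while most other genes overlap between groups.

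The share of Shank1 in the Shank messenger RNA was also compared, without a test. As a share of the summed level of Shank1, Shank2 and Shank3 per kb of exon it held 12.5% ± 2.4 with paraquat, 9.3% ± 1.0 with TiO2, 12.4% ± 1.7 with the mixture and 8.2% ± 1.1 in control (SD). The lowest share was 10.2% with paraquat and 11% with the mixture, above the highest of 9.6% in control, while TiO2 libraries began at 8.1%. Shank3 held 60.1% ± 3.9 with paraquat, 63.2% ± 1.5 with TiO2, 58.0% ± 3.4 with the mixture and 62.7% ± 3.8 in control. Shank3 thus had the largest part in every group. The gene 1700008O03Rik overlaps Shank1 by 339 bases on the other strand, and whether reads were counted by strand is not given in the sources used here. It averaged 24.9 normalised reads over all libraries and was called in no comparison with control, the lowest adjusted p being 0.407.

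Summed markers of other cells varied beside Shank1, though not every single marker went with its sum. Of 11 cortical markers, 9 were higher than control with each exposure. Those called higher were 3 with paraquat, 0 with TiO2 and 0 with the mixture, beside 6.34%, 4.3% and 1.12% of all genes. The summed normalised count of 11 of 12 markers of cortical glutamatergic neurons (Emx1 was not among the genes analysed here) was 3342, 7113 and 3936 in the paraquat libraries, 2997 to 4315 with TiO2, 4284 to 6015 with the mixture and 2438 to 3760 in control, and no marker was at 0 throughout. Slc17a7, the vesicular glutamate transporter of cortical neurons, stood at 609, 2703 and 736 in the paraquat libraries, 418 to 1201 with TiO2, 990.4 to 1805 with the mixture and 203 to 544 in control. Paraquat 2, with the highest cortical sum, also had the highest Shank1, and mixture 4 and 1 followed in the cortical sum with Shank1 at 721 and 714. Paraquat 3 and TiO2 3 had much the same Shank1, at 719 and 703.5, with lower cortical sums of 3936 and 4315. Over the 15 libraries, on the log2 scale, Shank1 had a Pearson r of 0.83 and a Spearman rho of 0.84 with this sum, an r of 0.74 around the group means, and an r of 0.69 without the 2 libraries farthest from the median sum. The points share the 4 groups and their libraries' scaling, and r is given as a description.

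The summed count of the 14 medium spiny neuron markers ran the other way. It was 90982 to 101007 with paraquat, 98147 to 107653 with TiO2, 90592 to 104722 with the mixture and 105718 to 114597 in control, and its r with Shank1 was -0.86 (rho = -0.91, and -0.64 around the group means). Of these 14 markers, 5 were called lower with paraquat, 2 with TiO2 and 0 with the mixture, beside 4.06%, 2.1% and 0.0707% of all genes. Against the sum, 3, 5 and 0 of them had a higher fitted level than control. In paraquat 1, with 617 normalised reads of Shank1, the cortical sum of 3342 lay within the control range, Slc17a7 at 609 above it and the medium spiny sum of 101007 below it. Without paraquat 2 the log2 fold change of Shank1 with paraquat was 0.68 (adjusted p = 0.0135 with limma). In the mixture all 4 cortical sums lay above all control sums. Oligodendrocyte markers summed to 91101 to 104542 with paraquat, 56633 to 89133 with TiO2, 48910 to 84481 with the mixture and 41288 to 61636 in control, with an r with Shank1 of 0.54 that was -0.02 around the group means. All 10 were higher than control with each exposure, and 8 were called with paraquat, 1 with TiO2 and 0 with the mixture. The part of these markers in the change of Shank1 was not tested further, and in bulk tissue fewer cells of a type and less RNA per cell cannot be told apart.

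**Figure D3:**
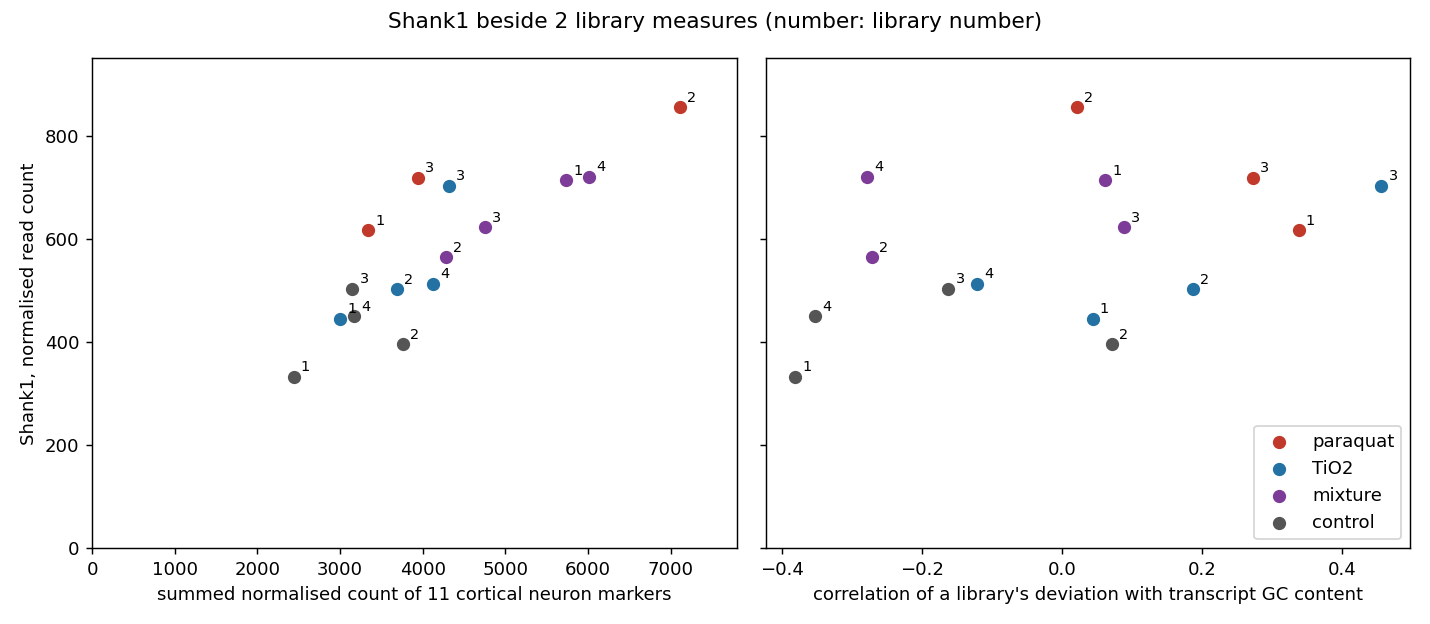
Shank1 normalised read count in each library against the summed normalised count of 11 cortical neuron markers (left) and against the correlation of that library's deviation with transcript GC content (right), coloured by group and marked with the library number. Shank1 and the cortical sum are both highest in paraquat 2 and both lowest in control 1.

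By a rule on likeness, the 4 genes of mean count 50 or more whose log2 values followed Shank1 most closely over the 15 libraries were Gfra2 (r = 0.957), Kif21b (0.955), Rtn4r (0.94) and Igsf21 (0.934), among 11610 genes compared. Gfra2 encodes a co-receptor for neurturin, Kif21b a kinesin and Rtn4r the Nogo receptor.

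Shank2 (chr7:144001928-144424494) and Shank3 (chr15:89499623-89560261), the other scaffolds of the family, passed the test in no comparison with control. Shank2 ranged from 1617 to 1701 with paraquat, 1568 to 1769 with TiO2, 1526 to 1649 with the mixture and 1344 to 1721 in control, and the control range held all but 1 of the other libraries, TiO2 3. Shank3, whose human counterpart is a known autism gene, had 3338, 2760.0 and 3171 normalised reads with paraquat, 3097, 3052, 3824.5 and 2860.0 with TiO2, 2799, 2646, 3005 and 2305 with the mixture and 2541, 3149, 2667 and 2807 in control. TiO2 3 was highest and mixture 4 lowest, and all groups overlapped control. The log2 fold change of Shank3 was 0.15 ± 0.10 with paraquat, 0.20 ± 0.10 with TiO2 (SE, adjusted p = 0.378 and 0.213 with limma) and -0.06 ± 0.10 with the mixture (adjusted p = 0.878).

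**Figure D4:**
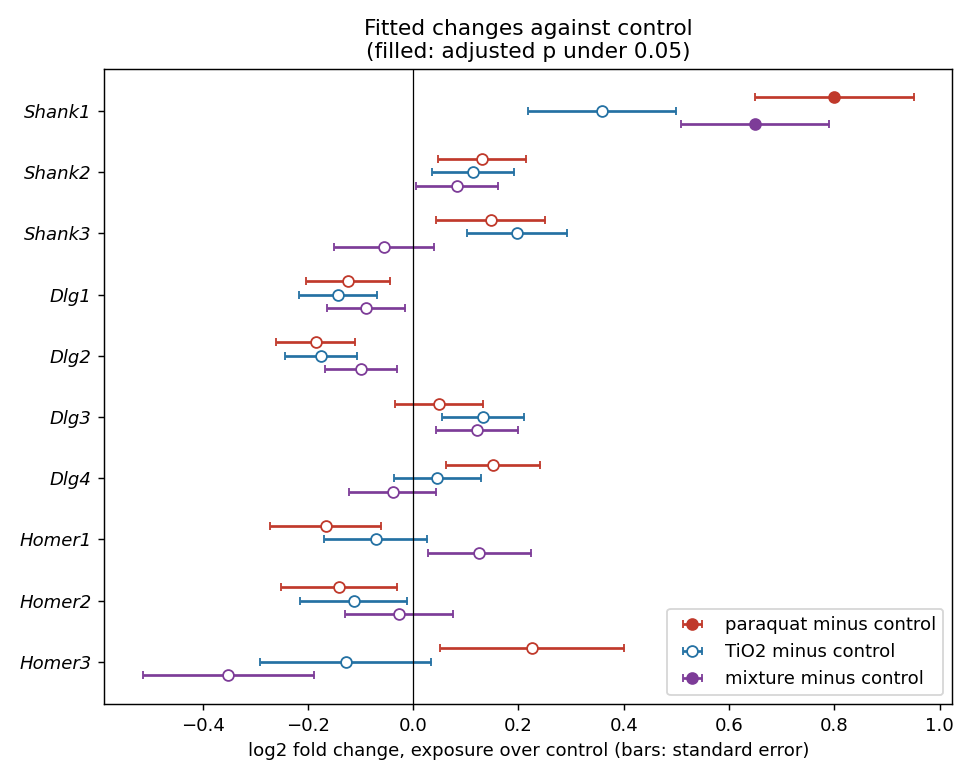
Fitted log2 fold change of each scaffold gene against control, with its standard error, for paraquat, TiO2 and the mixture; filled points passed an adjusted p of 0.05. Shank1 with paraquat (0.80) and with the mixture (0.65) are the 2 filled points. The Dlg1, Dlg2 and Homer2 points lie below 0 for all 3 exposures without passing the test, and those of Shank1, Shank2 and Dlg3 lie above 0.

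Among the Dlg genes, 0 of 4 passed the test in any comparison of an exposure with control. Dlg2 (chr7:90476672-92449247), which encodes PSD-93 and was the most abundant of the 10, came nearest with paraquat. Its normalised reads were 9945, 11103 and 11548 with paraquat, 11024, 10431, 10354 and 11922.5 with TiO2, 10792.5, 11669, 11765 and 11821 with the mixture, and 12049, 11797, 12543.5 and 12936 in control. All 3 paraquat libraries were below all control libraries, and 1 TiO2 and 1 mixture library reached the control range. The log2 fold change was -0.19 ± 0.07 with paraquat (adjusted p = 0.114 with limma), -0.18 ± 0.07 with TiO2 (0.127) and -0.10 ± 0.07 with the mixture (0.618). The noncoding gene Gm45159 overlaps Dlg2 by 75 bases on the same strand and averaged 117 normalised reads.

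Groups did not overlap in 21.2% of all genes for paraquat against control, in 12.5% with TiO2 and in 7.75% with the mixture. The members without overlap were 2 of 10 with paraquat (Shank1 higher, Dlg2 lower), 0 with TiO2 and 2 with the mixture (Shank1 and Dlg3, both higher). An unadjusted p under 0.05 was found for 2 members with paraquat, 3 with TiO2 and 2 with the mixture, and for 26.6%, 23.3% and 12.2% of all genes in these comparisons. The median log2 fold change over the 10 members was 0.09 with paraquat, -0.01 with TiO2 and -0.03 with the mixture, and over all genes -0.01 in each. For paraquat the members' counts thus stand near the shares of all genes.

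Dlg4 (chr11:70016942-70047522), for PSD-95, the central scaffold of the density, had 4502.5, 3946 and 3980 normalised reads with paraquat, 3775, 3765, 4459 and 3439 with TiO2, 3640.1, 3549, 3954 and 3364.5 with the mixture, and 3519, 4159, 3612 and 3627 in control. The groups overlapped, with log2 fold changes against control of 0.15 ± 0.09 with paraquat, 0.05 ± 0.08 with TiO2 and -0.04 ± 0.08 with the mixture (adjusted p of 0.281 to 0.902). Dlg3 (chrX:100767722-100818410), for SAP102, a scaffold prominent at young synapses, averaged 857 ± 88.8 with paraquat, 905 ± 52.7 with TiO2, 898 ± 22.4 with the mixture and 826 ± 56.7 in control. Its 4 mixture libraries, from 876.5 to 929, lay above the control libraries, from 742 to 864, at a log2 fold change of 0.12 ± 0.08 (adjusted p = 0.569 with limma). Dlg1 (chr16:31663443-31875129), for SAP97, which accompanies AMPA receptors on their way to the membrane, averaged 722 ± 49.5 with paraquat, 712 ± 31.8 with TiO2, 738 ± 36.9 with the mixture and 786 ± 43.7 in control. Its log2 fold changes were -0.12 with paraquat, -0.14 with TiO2 and -0.09 with the mixture, and had adjusted p of 0.249 to 0.681.

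By the same rule the genes closest to Dlg2 were Mindy2 (r = 0.939), Ap3m1 (0.93), Arih1 (0.922) and Fam133b (0.91). Within the members, Shank3 and Dlg4 varied together, with r = 0.87 over the 15 libraries and 0.93 around the group means, the highest of the 45 pairs. Dlg2 and Homer2 followed with 0.80, and Dlg4 and Homer2 were the most opposed with -0.73. The library measure of GC content went with these pairs. Its r was 0.87 with Shank3 and 0.84 with Dlg4, but -0.79 with Dlg2, -0.77 with Homer1 and -0.68 with Homer2, and 0.44 with Shank1. The transcript of Homer2 has 53.1% G and C, above the median of 49.9% over all genes, so the sign of r did not follow GC content in every member. TiO2 3, with the highest GC measure (0.46), had the highest Shank3 of all libraries. Summed markers of oligodendrocyte precursors also varied beside these genes. Their r was 0.77 with Shank3, 0.7 with Dlg4, -0.66 with Dlg2, and -0.49 with Homer1 and with Homer2. Around the group means it was 0.79, 0.65, -0.29, -0.31 and -0.36 in that order. The part of either measure in these pairs was not tested.

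Across the 10 members, those with more G and C had the higher fold changes with paraquat (r = 0.74) and TiO2 (r = 0.63), and less so with the mixture (r = 0.13). When a smooth trend on transcript GC content was removed from each library, r was 0.35 with paraquat, -0.04 with TiO2 and -0.01 with the mixture. Of the members, Shank1 kept a log2 fold change of 0.56 with paraquat (adjusted p = 0.0496 with limma), and had 0.19 with TiO2 (0.507) and 0.58 with the mixture, where its call was lost (0.0743). Dlg2 was at -0.08 with paraquat (adjusted p = 0.49), and Shank3, at -0.11, changed sign. Members are few and differ in more than GC content, so these r are descriptions.

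**Figure D5:**
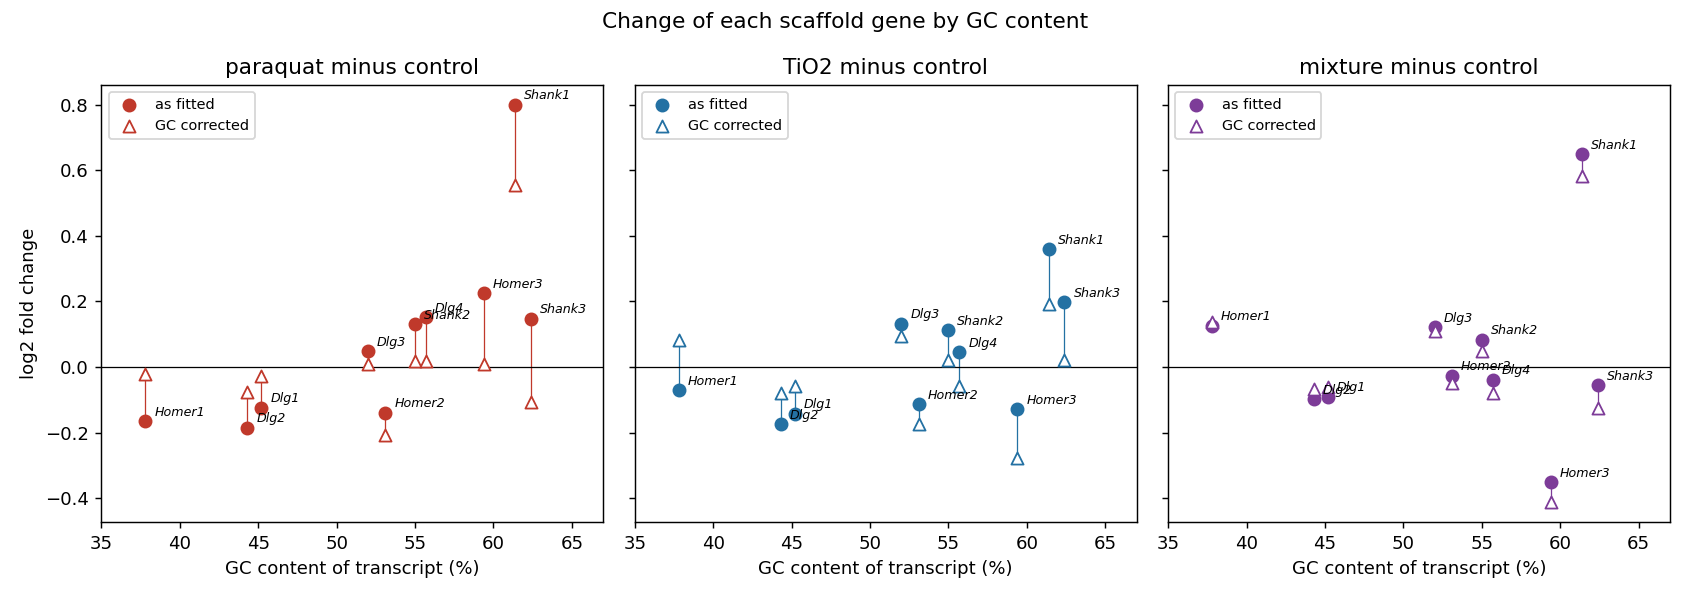
Log2 fold change of each of the 10 scaffold genes against its transcript GC content, for each exposure over control, as fitted (filled circles) and with a GC trend removed from each library (open triangles). With paraquat most points move toward 0 under the correction, and Shank1 remains at 0.56.

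Homer1 (chr13:93299635-93405129) encodes long Homer proteins that crosslink the scaffold and a short form, Homer1a, which lacks the coiled coil and is induced by neuronal activity, and a count per gene cannot separate them. A promoter of it is shown because of this known response. The RefSeq sequence of GRCm38.p6 at chr13:93303507-93303806, plus strand, holds 3 matches to TGACGT, letters found in cyclic AMP response elements, set in capitals. The other Homer1 promoter, at chr13:93307784-93308083, holds 0 and is not shown. GGGCGG and TATAAA were also searched and had 0 matches in either promoter. Both strands were searched, and 7.51% of 32851 promoters of the same length hold a match and 0.201% hold 3 or more.
Homer1 promoter: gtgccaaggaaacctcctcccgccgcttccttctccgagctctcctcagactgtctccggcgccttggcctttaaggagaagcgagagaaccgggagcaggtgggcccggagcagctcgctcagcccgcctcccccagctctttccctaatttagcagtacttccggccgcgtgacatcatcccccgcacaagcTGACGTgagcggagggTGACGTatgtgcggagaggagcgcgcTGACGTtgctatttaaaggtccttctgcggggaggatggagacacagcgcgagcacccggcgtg

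Homer1 had 1618, 1854 and 1613 normalised reads with paraquat, 1835.5, 1734, 1689 and 1983 with TiO2, 1908, 2473, 1994.5 and 1954 with the mixture, and 2015, 1572, 1830 and 2238 in control. Control libraries covered most of this range, and the log2 fold changes of -0.17 ± 0.10 with paraquat, -0.07 ± 0.10 with TiO2 and 0.13 ± 0.10 with the mixture did not pass the test (adjusted p = 0.327, 0.71 and 0.661 with limma). The summed count of 8 immediate early genes, a separate readout of activity-induced transcription, was 5238 to 7822 with paraquat, 6426 to 8802 with TiO2, 5284 to 7410.1 with the mixture and 3819 to 5610 in control. Its r with Homer1 over the 15 libraries was -0.06. Homer1, with its long and short forms counted together, thus did not follow this sum from library to library. Egr1 was a large part of the sum, at 2376.5 of 3818.5 normalised reads in control 1.

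Homer2 (chr7:81600481-81707527, minus strand), which shares the crosslinking role, averaged 537.5 ± 66.3 with paraquat, 548 ± 70.5 with TiO2, 578 ± 17.6 with the mixture and 594 ± 84.2 in control, with adjusted p of 0.441 to 0.95. Homer3 (chr8:70282827-70294361), the family member best known from cerebellar Purkinje cells, was low. It had 71.5, 56.8 and 55.3 normalised reads with paraquat, 53.9, 38.6, 56.2 and 42.8 with TiO2, 48.5, 35.8, 42.7 and 36.0 with the mixture, and 51.8, 57.8, 50 and 48.2 in control. Only mixture 1 reached the control range among mixture libraries, and the log2 fold change of -0.35 ± 0.16 did not pass the test (adjusted p = 0.371). Homer3 overlaps Ddx49 on the other strand by 874 bases. Ddx49 averaged 73.3 normalised reads over all libraries and Homer3 49.7, so the Homer3 values are uncertain. The genes closest to Homer3 were Znfx1 (r = 0.879), Armc5 (0.878), Tfe3 (0.867) and Mepce (0.853).

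The exposures were also compared with each other. For the mixture against paraquat the groups did not overlap in 13.8% of all genes, and in 2 of the 10 members. For the mixture against TiO2 these were 6.71% and 0 members, and for paraquat against TiO2 5.81% and 0 members. Homer1 was higher in all mixture libraries than in all paraquat libraries (log2 fold change 0.29 ± 0.10, adjusted p = 0.234), and Homer3 was lower in all of them (-0.58 ± 0.17, adjusted p = 0.182, with limma). Called genes made up 0.00643% of all genes for the mixture against paraquat, 0% for the mixture against TiO2 and 0% for paraquat against TiO2, and 0 members were called in each. Unadjusted p under 0.05 was reached by 3, 1 and 1 members and by 14.4%, 11.4% and 6.41% of all genes. Shank1 was at 0.44 ± 0.15 on the log2 scale for paraquat against TiO2 (adjusted p = 0.658), so the 2 exposures were not shown to differ for it.

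The interaction asks whether the mixture departs from the sum of its components on the log2 scale, taken as mixture minus paraquat minus TiO2 plus control. The labels name no dose, so whether the mixture held each component at the dose used alone is not known here. Of all genes, 11.8% were called, and 0 of the 10 members were. Members under an unadjusted p of 0.05 were 4, against 28.2% of all genes. They were Shank1 (-0.51 ± 0.21, adjusted p = 0.11), Shank3 (-0.40 ± 0.14, adjusted p = 0.0619), Dlg2 (0.26 ± 0.10, adjusted p = 0.0943) and Homer1 (0.36 ± 0.14, adjusted p = 0.0971, all with limma). In 23 alternative fits 0 members were called, edgeR, voom, the GC correction and the replicate block among them, and in 5 some were. With DESeq2 on the recovered reads Shank3 (adjusted p = 0.0423) and Dlg2 (0.0474) were called. Without single libraries (control 2, paraquat 2, TiO2 4 or mixture 3) Shank3 was called with limma at an adjusted p of 0.0284 to 0.0393, as were Homer1 without control 2 (0.0242) and Dlg2 without TiO2 4 (0.0468).

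Of 93 genes that bind, link or modify these scaffolds, 15 rose and 3 fell with paraquat, which is 16.1% and 3.23% beside 6.34% and 4.06% of all genes. With TiO2, 12 rose and 3 fell (12.9% and 3.23%, beside 4.3% and 2.1%), and with the mixture 3 rose and 0 fell (3.23% and 0%, beside 1.12% and 0.0707%). For paraquat the share in either direction was 19.4% of partner genes beside 10.4% of all genes, but it was not above that of all genes under the GC correction (6.45% beside 7.62%), under limma without trend and robust options (3.23% beside 4.83%) or without control 1 (5.38% beside 5.4%). The partner lists were chosen with earlier results of these data known, so a higher share of calls in them is no independent observation. Among genes with a mean of at least 50, 20 of 91 partner genes were called with paraquat, beside 14.7% of all genes. With TiO2 it was 16 of 91 beside 9.4%, and with the mixture 3 of 91 beside 1.62%. All 4 SAPAP linkers rose with paraquat. Dlgap3, the form enriched in striatum, averaged 1263 ± 152 with paraquat and 908 ± 106 in control (SD), a log2 fold change of 0.48 ± 0.13 (adjusted p = 0.0219 with limma). Dlgap2 rose by 0.34 ± 0.09 with paraquat and by 0.40 ± 0.08 with TiO2 (adjusted p = 0.0171 and 0.00504), and Dlgap1 and Dlgap4 rose by 0.25 ± 0.08 and 0.26 ± 0.08 with paraquat (adjusted p = 0.0432 and 0.0464). No SAPAP linker passed the test with the mixture. With paraquat the calls of Dlgap1 and Dlgap4 were each lost in 6 of the 7 fits that left out 1 library, that of Dlgap3 without control 1, paraquat 1 or paraquat 3, and that of Dlgap2 without paraquat 1 or 2. All 4 were lost under the GC correction, where the adjusted p was 0.154 to 0.807. The sums of cortical, oligodendrocyte and medium spiny markers given beside Shank1 differ between the same libraries, and their part in these counts was not tested.

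Of 12 genes listed here as Shank partners, Lrfn1, an adhesion protein also known as SALM2 that binds PSD-95, rose with paraquat to 163 ± 21.6, against 102 ± 14.6 in control (log2 fold change 0.68 ± 0.13, adjusted p = 0.00261 with limma). This call held without any single library but was lost under the GC correction (0.41, adjusted p = 0.0618). Baiap2, for the actin regulator IRSp53, rose by 0.30 with paraquat and with TiO2 (adjusted p = 0.039 and 0.0364). Sstr2, a somatostatin receptor, rose with the mixture to 341 ± 47.7, against 215 ± 31.5 in control (0.66 ± 0.13, adjusted p = 0.0139).

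Of 28 Dlg partners, 5 rose and 1 fell with paraquat, 6 rose and 1 fell with TiO2, and 1 rose with the mixture. Cnksr2, a scaffold of Ras signalling, rose in all 3 comparisons, by 0.27 ± 0.08 with paraquat, 0.36 ± 0.07 with TiO2 and 0.30 ± 0.07 with the mixture (adjusted p = 0.0353, 0.00587 and 0.0484 with limma). With single libraries left out, the paraquat call was lost in 6 of 7 fits and the mixture call in 8 of 8. Only the TiO2 call of Cnksr2 held in each such fit. Iqsec2, an exchange factor for Arf6 that binds PSD-95, rose by 0.50 ± 0.11 with paraquat (adjusted p = 0.00527), and its close relative Iqsec1 by 0.31 and 0.33 with paraquat and TiO2. Cacng2, for stargazin, and Cacng3, both auxiliary subunits of AMPA receptors, rose with TiO2 by 0.30 and 0.52 (adjusted p = 0.0207 and 0.0188), and Adam22, the receptor of the secreted protein Lgi1, fell by 0.31 (adjusted p = 0.0134).

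Of 13 Homer partners, Trpc1, a cation channel, fell by 0.33 ± 0.10 with paraquat (adjusted p = 0.0453), Itpr1, the inositol trisphosphate receptor of calcium stores, fell by 0.29 ± 0.09 with TiO2 (adjusted p = 0.0489 with limma), and none passed with the mixture. Of 15 other PDZ scaffolds, Mpp2 rose by 0.39 ± 0.10 with paraquat (adjusted p = 0.0133), Apba1 rose by 0.29 with TiO2 and by 0.34 with the mixture, and Magi2 fell by 0.25 with TiO2. Of 9 enzymes that add or remove palmitate on PSD-95, Zdhhc8 rose by 0.47 with paraquat and by 0.42 with TiO2 (adjusted p = 0.0106 and 0.0166), Zdhhc3 by 0.33 with TiO2 (0.0111), and Abhd17a by 0.34 with each of these 2 exposures (0.0438 and 0.0396). Of 12 genes for turnover and phosphorylation, Camk2a, the abundant kinase of the density, rose with paraquat to 9875 ± 393, against 7939 ± 625 in control (0.32 ± 0.09, adjusted p = 0.0197). Of the partner calls, 2 of 18 with paraquat (Lrfn1 and Iqsec2), 3 of 15 with TiO2 (Dlgap2, Cnksr2 and Zdhhc3) and 0 of 3 with the mixture held without each library of the 2 groups in turn, and under the GC correction 3 with paraquat (Cnksr2, Iqsec2 and Cacng2), 8 with TiO2 and 3 with the mixture held.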

How the data were processed

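RNA of 15 striatum libraries was compared between 4 groups taken from the labels. The authors deposited a normalised signal, each value being a gene's whole reads scaled by a library's size factor. The worth of 1 read, 0.659 to 1.08, was read from the values, and with it 100% of values came out whole within 0.001; recovery is claimed for 11 libraries, since in 4 the step lies near 1. Bowtie2 2.3.2.2, DESeq2 2.1.8.3 and mm10 stand in the submitters' processing notes; the read counter, annotation and strand setting: not given in the sources used here. Without molecular identifiers the recovered totals bear on counting error only.

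Limma 3.58.1 in R 4.3.3, with trend and robust options, was fitted on log2(value + 1) over all libraries and the 15556 genes kept by filterByExpr of edgeR 4.0.16, without a block, and called at a Benjamini-Hochberg adjusted p under 0.05. Low genes' fold changes are understated on this scale. Alternatives were other pseudocounts, filters, scalings, tests (edgeR, DESeq2 1.42.0, voom), a GC correction (lowess, span 0.3), a replicate block and leaving out each library. Unless stated otherwise, results without a library are for libraries of the groups compared. Within groups, libraries differed by more than counting noise (chi-square per degree of freedom 3.01 to 25.1). The scripts were tested on simulated data. The members and the lists of partners and markers were chosen with earlier results of these data known. Of each list of partners the called genes were named, up to 6 by smallest p, of which 1 is not reported here; the likeness rule took the member of each family with the smallest p and its 4 nearest genes. Symbols, lengths and GC content are from GENCODE M21, and promoters (8 of 10 members matched) from RefSeq, each 250 bases before to 50 after a start.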

Additional observations from a re-analysis of the deposited data

Results flagged for a closer look

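In 4 of 30 tests (a gene in a group of 4 libraries) 1 library stood far from the other 3 by Dixon's criterion, which chance gives in about 1 of 20. Dlg2 was lowest in mixture 1, at 10792.5 normalised reads, beside 11669 to 11821 in the other mixture libraries. Homer1 was highest in mixture 2, at 2473, beside 1908 to 1994.5. In control, Dlg3 was lowest in library 4, at 742, beside 844 to 864, and Dlg4 was highest in library 2, at 4159, beside 3519 to 3627.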

How the results depend on the processing

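Depth did not limit the abundant members; Homer3, at 35.8 to 71.5 normalised reads, is the least precise. Shank1 was called for paraquat under the 14 other settings (log2 fold change 0.56 to 0.82) and each left-out library (0.68 to 0.91); for TiO2 it was called in none (adjusted p 0.0663 to 0.507). For the mixture it was lost under limma without trend and robust options (0.65, adjusted p = 0.118) and the GC correction (0.58, adjusted p = 0.0743), both leaving 0 members called, and with single libraries left out the members called were 0 to 1. In the interaction DESeq2 called 2 members, and left-out libraries gave 0 to 2. The cause of these changes was not tested.

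The other 9 members were called in none of 582 recomputed values, and 16 changed sign, all uncalled: under the GC correction alone and with the block Shank3 with paraquat (-0.11 and -0.12), Dlg4 with TiO2 (-0.057 both) and Homer1 with TiO2 (0.082 both), and Homer3 with paraquat with both together (-0.009). With a library left out the log2 fold change spanned -0.11 to 0.016 (Shank3, mixture), -0.02 to 0.13 (Dlg3, paraquat), -0.025 to 0.10 (Dlg4, TiO2), -0.082 to 0.014 (Dlg4, mixture), -0.16 to 0.009 (Homer1, TiO2) and -0.11 to 0.04 (Homer2, mixture).

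Partner genes called with paraquat (18) were 3 under plain limma (3.23%, beside 4.83% of all genes), 11 with only the groups compared (11.8%, beside 7.85%), 6 with the GC correction (6.45%, beside 7.62%) and 9 with the block and GC correction (9.68%, beside 7.69%); with TiO2 (15) and the mixture (3) they were 4 (4.3%, beside 3.16%) and 0 (beside 0.328%) under plain limma. Leaving out a library of the 2 groups compared gave 5 to 14, 4 to 20 and 0 to 2. Leaving out a library of another group gave 11 to 21, 13 to 17 and 2 to 4. With paraquat the 5 without control 1 were 5.38% beside 5.4% of all genes, and the 21 without TiO2 4 were 22.6% beside 10.9%. Over all genes, paraquat (1617), TiO2 (996) and the mixture (185) had 752, 491 and 51 under plain limma and 665, 467 and 52 without paraquat 3, TiO2 3 and mixture 3, and the mixture 300 with DESeq2, 290 with the block and 358 with the block and GC correction.

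No pairing by library number was seen in the correlations, and the labels do not say whether equal numbers mark anything. Of 21 same-number pairs 8 had a correlation of deviations over 0.1 (mean 0.019, against -0.006 for different numbers), and 4 of 15 libraries correlated best with their own number. A shared batch was not tested. With the replicate block the members called stayed at 1, 0 and 1, and all genes called were 1482, 1354 and 290, against 1617, 996 and 185 without it.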
